A study of Homo sapiens with 2 samples.

Results

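The Notch pathway was described in liver progenitors made from human embryonic stem cells by the levels of 37 genes, which are the ligands, receptors, processing enzymes, nuclear partners and effectors listed for it by symbol. Each was found in the deposited table by its Ensembl identifier without version, and all 37 had 1 identifier among the 57158 rows. The cells were of CyT49, an established human embryonic stem cell line. Definitive endoderm, from which gut, liver and pancreas arise, was reached by day 2. Suspension culture then went on for 6 days in medium with 0.2% FBS (serum), BMP4 at 50 ng/ml and FGF2 at 10 ng/ml, which steer endoderm to liver, and RNA was taken at day 8. The series held 1 group of 2 libraries, with no untreated, earlier or Notch-inhibited sample, so no change could be measured and no test between groups was possible. Levels are therefore given as a description.

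In Notch signalling, a ligand on one cell binds a receptor on its neighbour, and proteases then cut the receptor so that its inner part enters the nucleus. There it joins the DNA-binding protein RBPJ and a Mastermind coactivator and switches on genes such as those of the HES and HEY repressors. In the liver the pathway is best known for directing bipotent hepatoblasts towards bile duct cells, and inherited loss of JAG1 or NOTCH2 leaves too few bile ducts in Alagille syndrome.

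Values are RPKM, read numbers divided by gene length and by sequencing depth, which is meant to let levels of different genes be compared. The gene lengths used are not given, so ratios between genes hold only as far as those lengths are right. Every value under 0.5 RPKM was listed as 0.1, and such a gene is said here to be at the floor. The 2 libraries, normalized to 25182189 and 25263941 reads, differed by 1.08 times their counting variance over 948 single-exon genes. They were therefore counted as 1 sample, and differences between them are read as technical error. All 13 genes on a list of hepatoblast markers reached 1 RPKM in both libraries, beside 59.8% of protein-coding genes. APOA1, FGB and APOA2 were the highest. The list was chosen with earlier results of these data known, so this count is a description and no test of cell identity.

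The promoters of 4 effector genes are shown first, because they carry the letters that RBPJ is known to recognise and yet stood at opposite ends of the levels measured. Each stretch is RefSeq sequence of 170 bases, from 230 to 61 bases before the RefSeq gene start. It is written 5′ to 3′ on the gene's strand and was found by exact match at 1 place on its chromosome in GRCh37 (hg19). Other chromosomes were not searched. Capitals mark every TGGGAA, the core of the RBPJ motif, or TTCCCA, the same letters on the other strand.
HES1 (chr3:193853707-193853876, plus strand): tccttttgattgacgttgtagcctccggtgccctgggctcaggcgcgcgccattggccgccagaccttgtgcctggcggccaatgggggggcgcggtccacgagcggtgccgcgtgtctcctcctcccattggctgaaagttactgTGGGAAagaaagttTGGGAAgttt
HES4 (chr1:935538-935707, minus strand): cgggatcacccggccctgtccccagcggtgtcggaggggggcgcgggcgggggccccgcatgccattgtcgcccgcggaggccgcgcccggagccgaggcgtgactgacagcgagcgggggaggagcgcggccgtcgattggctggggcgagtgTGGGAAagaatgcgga
HES5 (chr1:2461763-2461932, minus strand): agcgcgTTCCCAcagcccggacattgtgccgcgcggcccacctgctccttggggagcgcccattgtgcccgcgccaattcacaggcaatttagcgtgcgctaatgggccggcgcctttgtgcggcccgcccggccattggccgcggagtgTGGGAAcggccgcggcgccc
HEYL (chr1:40105376-40105545, minus strand): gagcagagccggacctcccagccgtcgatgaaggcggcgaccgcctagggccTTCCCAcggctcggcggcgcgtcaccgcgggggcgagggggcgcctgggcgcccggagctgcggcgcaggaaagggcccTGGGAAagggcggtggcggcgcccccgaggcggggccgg
The last 15 bases of the HES4 stretch lie in an exon annotated by GENCODE, and the other stretches touch no annotated exon. These 15 bases are within the GENCODE span of HES4 itself, which begins at 935552 on the minus strand, and hold most of its capital letters. The motif of HES4 is thus upstream of the RefSeq start, from which positions are counted here, but spans the GENCODE start. HES1 and HES4 had the highest levels of the effectors, whereas HES5 and HEYL were at the floor.

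Of the 37 genes, 28 reached 1 RPKM in both libraries, the level called detected here, beside 59.8% of 19344 protein-coding genes. At 10 RPKM or more stood 11 of the 37, beside 20.2% of protein-coding genes, and 6 lay at the floor in each library, beside 33.8%. Over the floor in both stood 30 (background 65.1%), and 20 reached 5 RPKM (background 35.4%). The median over the 37 was 7.43 RPKM, against 2.42 RPKM over all protein-coding genes. Of 18 ligands, receptors and effectors, 10 were detected and 6 were at the floor, shares near those over all protein-coding genes. Of the other 19 genes, which process ligands and receptors or serve in the nucleus, 18 were detected and none was at the floor in both libraries. The difference between these groups of genes was not tested. In RNA from a mixed culture, fewer cells of a type and less RNA per cell cannot be told apart.

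**Figure D1:**
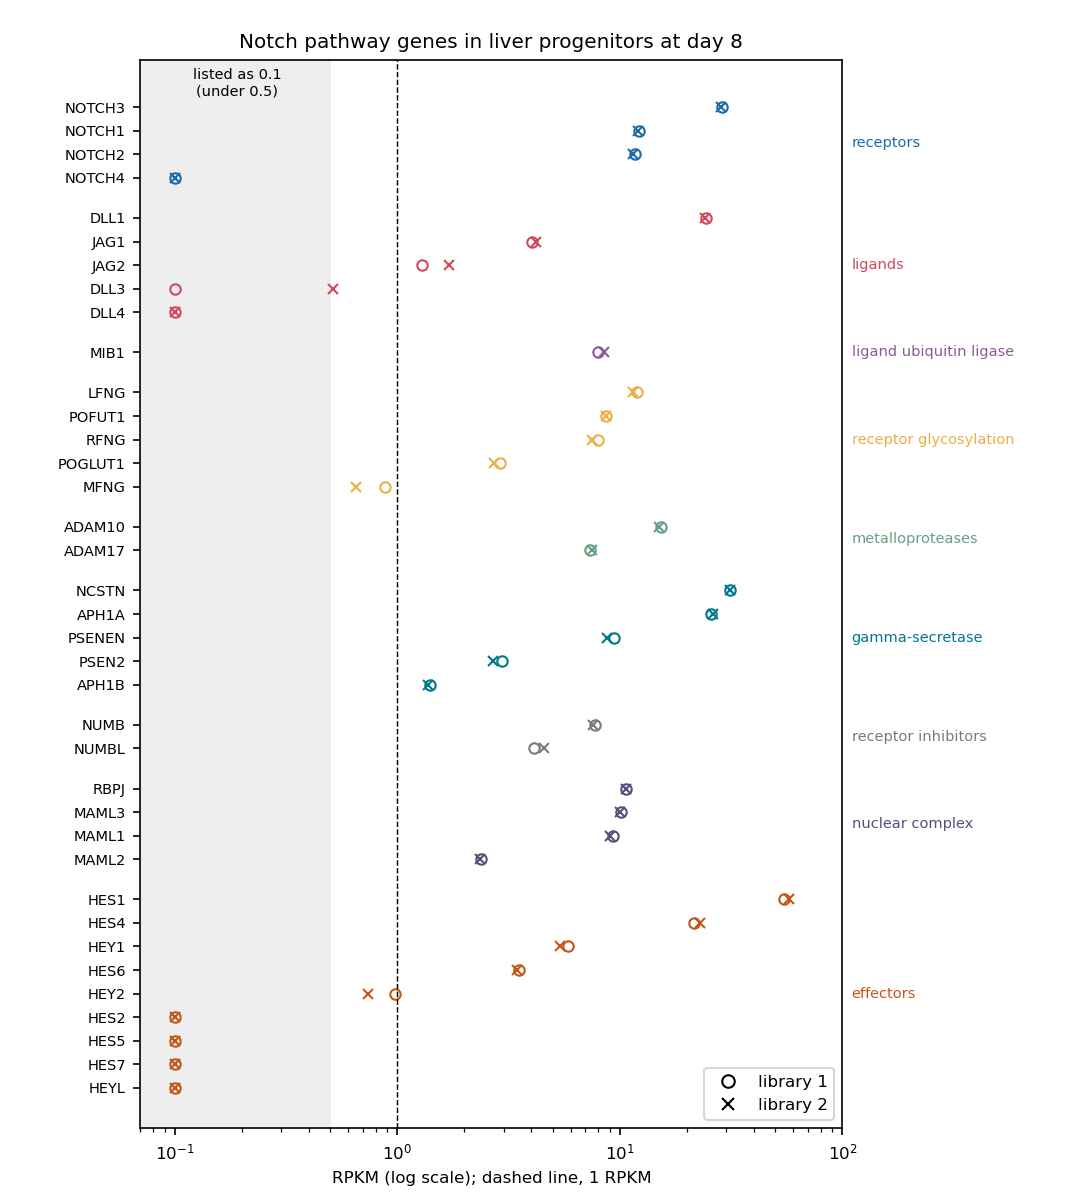
RPKM of each of the 37 Notch pathway genes in library 1 (circles) and library 2 (crosses) on a log scale, grouped by role, with the values listed as 0.1 in the grey area and 1 RPKM as a dashed line. HES1 lies farthest right at 54.6 and 57.5 RPKM, and 6 genes lie in the grey area in both libraries.

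Among the receptors NOTCH3 stood highest, at 28.7 RPKM in library 1 and 28.5 in library 2, above 93.7% of protein-coding genes. It is ENSG00000074181.4, on chromosome 19 from 15269849 to 15311806 (GRCh37). NOTCH1 had 12.1 and 12.0 RPKM, and NOTCH2, the receptor most closely tied to bile duct formation, had 11.7 and 11.5 RPKM. The level of NOTCH3 was 2.37 times that of NOTCH1 in both libraries and 2.45 and 2.48 times that of NOTCH2. NOTCH1 and NOTCH2 lay close together. Their library ranges did not overlap, but the ratio between them was only 1.03 and 1.05, or 2.14 counting errors. A counting error does not cover the gene lengths behind the values, which are not given. Which of NOTCH1 and NOTCH2 was higher is therefore not decided. NOTCH4, known mainly from blood vessel endothelium, lay at the floor in each library. At its transcript length the floor of 0.5 RPKM stood for 84.9 reads in library 1. It shares 98 exonic bases with GPSM3 on its own strand, at 5.38 and 5.26 RPKM. Of the summed receptor level, NOTCH3 held 54.5% in library 1 and 54.7% in library 2.

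Among the ligands the order was led by DLL1 rather than by JAG1. DLL1, a Delta-type ligand known from somite and neural development and from the pancreas, had 24.3 RPKM in library 1 and 24.2 in library 2, above 92.2% of protein-coding genes. It is ENSG00000198719.7, on chromosome 6 from 170591294 to 170615653. JAG1, the ligand of bile duct formation, had 4.01 and 4.19 RPKM, so that DLL1 exceeded it 6.07 times in library 1 and 5.77 times in library 2. JAG2 had 1.29 and 1.71 RPKM. DLL3, which is known to act on Notch within the same cell rather than to activate it on a neighbour, was at the floor in library 1 and at 0.514 RPKM in library 2, just over the floor limit of 0.5. DLL4, a ligand of sprouting endothelium, was at the floor in each. DLL1 held 81.6% of the summed ligand level in library 1 and 78.8% in library 2, and 79.5% in library 1 when genes at the floor were set to 0.5. Exons of DLL1 overlap 370 bases of FAM120B on the other strand, which had 6.24 and 6.19 RPKM, and the part of such shared bases in the level was not tested.

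MIB1, the ubiquitin ligase that lets ligands be taken up and so pull on the receptor, had 7.98 and 8.46 RPKM. Its relative MIB2 had 5.89 and 5.81 RPKM. Both stood above the protein-coding median.

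Sugars added in the secretory pathway decide whether Notch reaches the surface and which ligands it answers. POFUT1, which adds the first fucose, had 8.70 and 8.66 RPKM, and POGLUT1, which adds glucose, had 2.88 and 2.71 RPKM. Fringe enzymes extend the fucose. LFNG was the highest fringe at 12.0 and 11.5 RPKM, RFNG had 7.96 and 7.46 RPKM, and MFNG had 0.882 and 0.649 RPKM, over the floor but under 1. LFNG thus exceeded RFNG 1.50 and 1.54 times, and RFNG exceeded MFNG 9.02 times in library 1 and 11.5 times in library 2. The MFNG ratio rests on about 46 reads in library 1 and 34 in library 2. RFNG shares 835 exonic bases with GPS1 on the other strand, at 20.3 and 21.1 RPKM, and how far these add to the RFNG level was not tested.

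The enzymes that cut the bound receptor were detected without exception among the 7 listed, beside 59.8% of protein-coding genes. They are 2 metalloproteases and 5 subunits of gamma-secretase. ADAM10, the metalloprotease of ligand-dependent cleavage, had 15.3 and 15.0 RPKM, and ADAM17 had 7.37 and 7.48 RPKM, a ratio of 2.08 and 2.00. NCSTN, the subunit nicastrin that receives the substrate, was the second highest of all 37 genes at 31.3 and 31.2 RPKM. APH1A, a scaffold subunit, had 25.6 and 26.1 RPKM, and its paralog APH1B had 1.40 and 1.38 RPKM. The APH1A level was therefore 18.3 times that of APH1B in library 1 and 18.9 times in library 2. PSENEN, the smallest subunit, had 9.46 and 8.77 RPKM. The catalytic subunit PSEN2 had 2.95 and 2.69 RPKM. PSENEN, PSEN2 and APH1B thus stood well under NCSTN and APH1A. On the other strand, ADAM17 shares 1645 exonic bases with IAH1 (3.14 and 3.16 RPKM), APH1A 490 with C1orf54 (1.72 and 1.86) and NCSTN 188 with COPA (45.8 and 46.3). PSENEN shares 285 bases with a protein-coding neighbour on its own strand, ENSG00000188223, at 9.54 and 10.6 RPKM. Whether these overlaps bear on the levels was not tested.

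**Figure D2:**
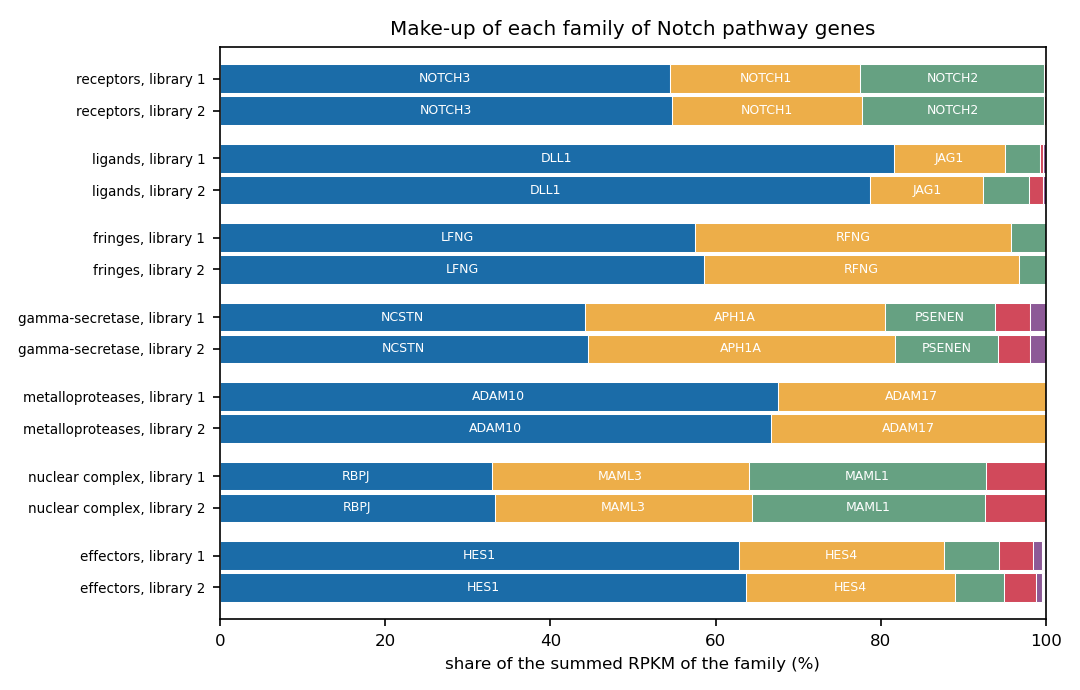
Share of the summed RPKM of each family held by its genes, for library 1 and library 2 (bars from 0 to 100%), with values at the floor entered as 0.1 and genes over 8% named. NOTCH3 holds 54.5% of the receptors, DLL1 81.6% of the ligands and HES1 62.8% of the effectors in library 1, with like shares in library 2.

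NUMB and NUMBL bind the receptor at the membrane and are known to restrain it. NUMB had 7.76 and 7.58 RPKM and NUMBL 4.09 and 4.57 RPKM, a ratio of 1.90 in library 1 and 1.66 in library 2. In the nucleus, RBPJ had 10.7 and 10.6 RPKM. Among the Mastermind coactivators MAML3 had 10.1 and 9.97 RPKM, MAML1 had 9.32 and 9.00 RPKM, and MAML2 had 2.38 and 2.36 RPKM. RBPJ, MAML3 and MAML1 formed a narrow group in which neighbours differed by 1.06 to 1.11 times, whereas MAML1 exceeded MAML2 3.92 and 3.82 times. MAML3 shares 252 exonic bases with MGST2 on the other strand, at 6.06 and 6.59 RPKM, and their part in its level was not tested. The table also lists 4 pseudogenes of RBPJ, RBPJP2, RBPJP5, RBPJP6 and RBPJP7, with a summed level of 6.74 and 6.94 RPKM. They are near copies of the RBPJ transcript, so reads may have been split between them and RBPJ, and the RBPJ level is uncertain to that extent.

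Of the 9 effectors, 4 were detected, beside 59.8% of protein-coding genes, and the levels of these 4 were far apart. HES1, the repressor that answers Notch in many tissues and is needed for the bile ducts and for holding back endocrine cells in the mouse, was the highest of all 37 genes. It had 54.6 RPKM in library 1 and 57.5 in library 2, about 2167 and 2288 reads, above 97.3% of protein-coding genes. It is ENSG00000114315.3, on chromosome 3 from 193853937 to 193856521. HES4, a close relative of HES1 that the mouse lacks, came next at 21.6 and 22.8 RPKM, so that HES1 exceeded it 2.53 and 2.52 times. HES4 is ENSG00000188290.6, on chromosome 1 from 934342 to 935552. HEY1 followed at 5.86 and 5.37 RPKM. HES6, which is known to oppose HES1 rather than to act as its copy, had 3.53 and 3.43 RPKM.

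The other 5 effectors were low or at the floor. HEY2, known from heart and arteries, had 0.971 RPKM in library 1 and 0.738 in library 2, just under the limit for detection. HES5, the Notch target of neural progenitors, HES7, which cycles in the segmentation clock, HES2 and HEYL lay at the floor in each library. The floor limit stood for 16.7 reads of HES5, 21.3 of HES7, 51.3 of HEYL and 53.7 of HES2 in library 1. HES1 and HES4 together with HEY1 and HES6 made up nearly the whole effector sum, with HES1 alone at 62.8% in library 1 and 63.7% in library 2.

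The levels can be set beside the promoter letters printed above. RefSeq windows from 250 bases before to 50 after the gene start were matched for 32 of the 37 genes, DLL1, DLL3, HEY1, APH1B and MFNG having no entry. The 7-base form of the motif, GTGGGAA on either strand, which contains the 6-base core TGGGAA, was found in 6 of these 32 genes, in 6 of their 38 windows, and in 6.25% of all 35116 windows. Of the 6, 5 were effectors, out of 8 effectors matched: HES1, HES4, HES5, HEYL and HEY2. The remaining gene was RBPJ itself. The core alone was found in 9 of the 32 genes and in 24.0% of all windows. HES1 held the 7-base form from position -85 to -79 and a further core from -70 to -65, HES4 held it from -77 to -71, and HES5 from -81 to -75 and again, on the other strand, from -224 to -218. The 6 genes with the 7-base form ranged from 56.1 RPKM for HES1, as the mean of the libraries, over 22.2 for HES4, 10.7 for RBPJ and 0.855 for HEY2, to the floor for HES5 and HEYL. Genes with and without detected transcripts thus shared the letters. A match of letters is not evidence of binding, and binding of RBPJ was not measured.

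**Figure D3:**
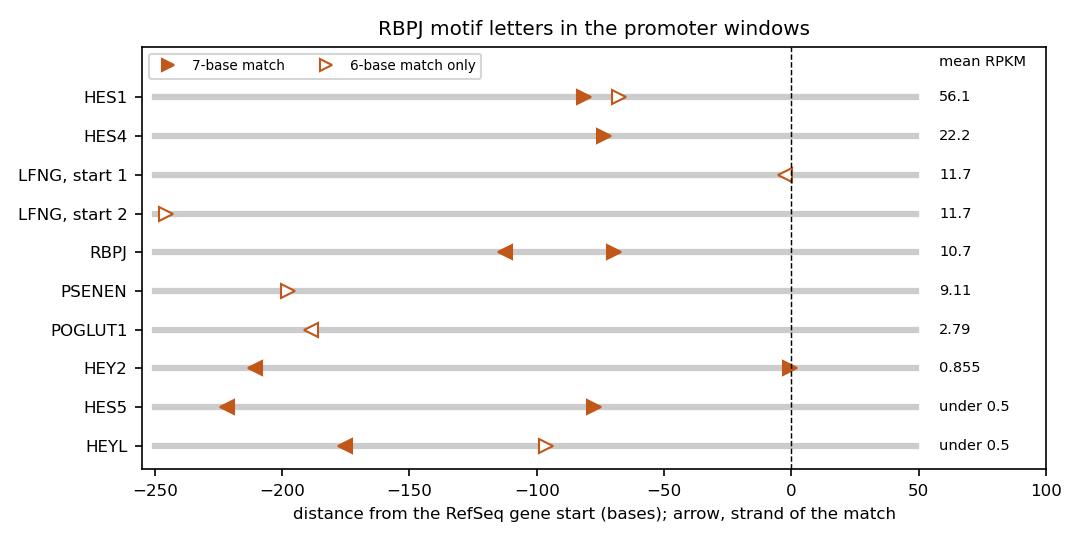
Position of the RBPJ motif letters (filled arrows, 7-base form; open arrows, 6-base core only; direction, strand) in the 300-base RefSeq windows of the 9 genes that hold the core, by distance from the gene start in bases, with the mean RPKM at the right and 1 row for each start of LFNG. HES1 at 56.1 RPKM and HES5 at the floor both hold the 7-base form on the plus strand within 90 bases of the start.

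The rest of the pathway was described by 50 further genes, of which 43 were detected, beside 59.8% of protein-coding genes. Their median was 7.94 RPKM, against 2.42 RPKM over all protein-coding genes. The highest was DLK1, a surface relative of the Delta ligands without the domain for activating Notch and a marker of hepatoblasts, at 479 and 476 RPKM. FURIN, the convertase that cuts the Notch precursor on its way to the surface, had 50.0 and 48.3 RPKM. Corepressors and coactivators that work with RBPJ or the HES proteins followed, with the repressor BCL6 at 22.5 and 23.4 RPKM. HDAC1 had 34.5 and 34.4 RPKM, the Groucho corepressor TLE2 32.2 and 32.4, EP300 20.9 and 21.8, and CTBP1 20.5 and 20.8. These genes serve many pathways, and their levels say nothing of Notch alone. At the floor in both libraries were the genes DLK2, DNER, HES3 and BHLHE41. Among genes named after their values were seen, NRARP, a feedback inhibitor that Notch induces in other systems, had 10.5 and 10.4 RPKM, and DTX1, a Deltex gene also induced in lymphocytes, had 0.848 and 0.874 RPKM.

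Markers of cell types in which Notch genes are well known were counted beside these levels. For comparison, 33.8% of all protein-coding genes were at the floor in both libraries and 59.8% were detected. Of the endothelial markers 7 of 9 measured were at the floor, CDH5, TEK, TIE1 and ERG among them, and ESAM (5.52 and 5.99 RPKM) and KDR (1.60 and 1.61) were not. Their summed level was 7.82 RPKM in library 1 and 8.30 in library 2. Of the neural progenitor markers 8 of 10 were at the floor, SOX1, SOX2 and PAX6 included, and NES had 15.9 and 15.5 RPKM and OTX2 1.31 and 0.956. Of the blood markers 8 of 10 were at the floor, the highest being CD68 at 3.66 and 3.17 RPKM and HBE1 at 1.57 and 1.54. Pancreatic endocrine progenitor markers were at the floor in 6 of 10 cases, NEUROG3 included, while PDX1 had 8.01 and 8.87 RPKM, SST 5.24 and 5.39, and INSM1 1.43 and 1.32. Of the mesenchymal markers 6 of 11 were detected, led by PDGFRA at 18.5 and 17.9, TAGLN at 12.0 and 11.8 and COL1A1 at 8.29 and 8.30 RPKM. NOTCH3 is known from vascular smooth muscle and pericytes as well as from epithelium. Of genes on the mesenchymal list that such mural cells express, TAGLN had the values just given, PDGFRB had 2.06 and 2.22 RPKM and DES was at the floor, while ACTA2 was at the floor in library 1 and at 0.562 RPKM in library 2. The part of mesenchymal cells in the NOTCH3 level was not tested.

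Markers listed for bile duct cells were mixed. Of 8 measured, 5 were detected, a share near the 59.8% over all protein-coding genes. KRT19 had 406 and 411 RPKM, SPP1 17.3 and 17.5, and SLC4A2 15.7 and 16.1, while KRT7 and SCTR were at the floor. SOX9, a duct factor that Notch induces, had 9.04 and 9.90 RPKM and is named here after its value was seen. Among pluripotency genes LIN28A (130 and 129 RPKM), SALL4 (24.5 and 24.6) and ZFP42 (13.2 and 13.0) were highest. POU5F1, NANOG, SOX2 and PRDM14 lay at the floor, a total of 4 detected of 8, beside 59.8% of protein-coding genes.

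The 2 libraries gave the same order within each role among genes over the floor in both. Over the 28 detected genes the median absolute difference between libraries was 0.04 on the log2 scale, and over 11575 detected protein-coding genes it was 0.05. JAG2 differed most, by 0.41 in log2 of library 2 over library 1, which was 2.97 times its counting error on about 187 and 250 reads. It was the only one of the 28 beyond 2 counting errors, beside 2.97% of 11493 detected protein-coding genes with a transcript length, a share near that of the 28. A noncoding gene on the same strand, ENSG00000257622, shares 469 exonic bases with JAG2 and had 2.20 RPKM in library 1 and 2.16 in library 2. Of the 28 genes 8 were higher and 20 lower in library 2, against 5751 higher and 5824 lower among protein-coding genes.

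**Figure D4:**
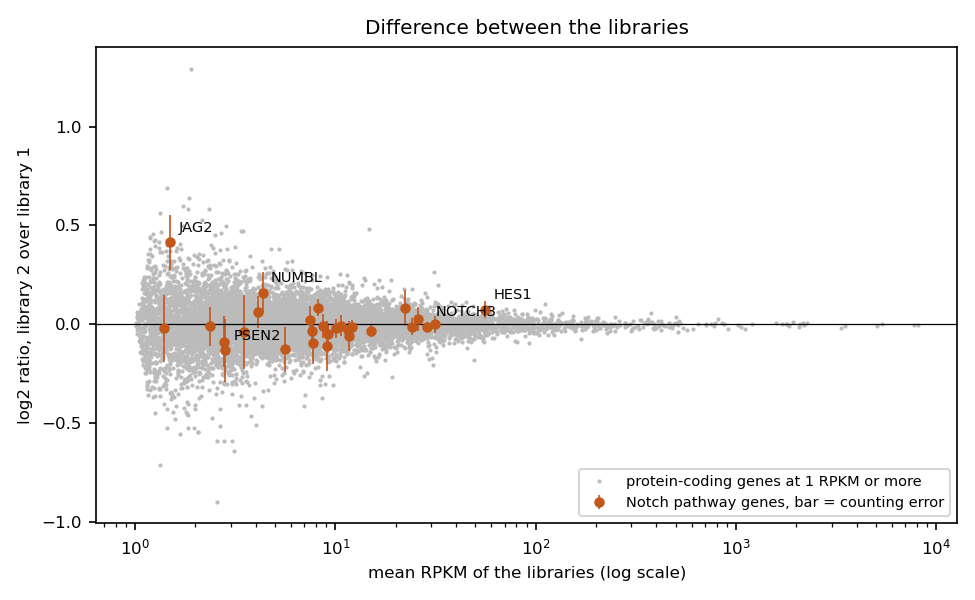
Log2 ratio of library 2 over library 1 against the mean RPKM (log scale) for 11575 protein-coding genes (grey) and the 28 detected Notch pathway genes (orange, with the counting error as a bar). JAG2 stands off at 0.41, and the others lie between -0.13 and 0.16.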

How the data were processed

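Poly(A) RNA was selected from 2 µg of total RNA and made into strand-specific libraries by dUTP marking, per the labels' protocols. The deposited values are RPKM per Ensembl gene and library, computed by the authors. The submitters' processing notes list FastQC 0.10.1, STAR 2.3.0e and Cufflinks 2.2.0 and the genome hg19, and the series description names Sailfish. The tool that gave the RPKM, the annotation release, the gene lengths and the use of strand in counting: none is given in the sources used here.

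Identifiers without version were joined to GENCODE release 44 mapped to GRCh37 (95.2% of 57158 matched). Of the marker genes, 3 were not matched and are not analysed here. The background is 19344 protein-coding symbols, each with its highest identifier. No value lay between 0.1 and 0.5. For single-exon genes under 500 reads, RPKM times gene length (end minus start, without the usual 1 base added) gave whole reads within 0.02 for 83.9% of genes in both libraries, which yields the reads in the normalization. The comparison of the libraries used such genes with a mean of 50 reads or more. Its calculation was also run on simulated counts. These had no floor, no selection for whole reads and no error in gene length, so the simulation does not cover those steps. Genes of several exons gave no whole reads, so no count model was used. Read numbers quoted for single genes are RPKM times that depth at the length of the Ensembl canonical transcript and are approximate. A counting error is the Poisson error of such reads on the log2 scale and is as approximate as they are. It does not allow for PCR reads without molecular identifiers not being independent. Whether the libraries stem from separate cultures is not stated in the labels.

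The 37 genes and all lists were chosen with earlier results of these data known. All 37 are named, together with the 8 highest and the floor members of the 50 further pathway genes and the 3 highest of each marker list, except that some genes are not reported here by name, while counts and medians include them. MIB2, the mural genes and detected genes sharing exons were named beside the gene they bear on, and floor markers as examples. Median levels are log2(RPKM + 1) unless given as RPKM. Promoter sequences are those of RefSeq on GRCh38.p14, placed on GRCh37 by exact match. Python 3.11.15, numpy 2.4.6, pandas 2.3.3 and matplotlib 3.10.9 were used. Alternatives were the detection limit, the number of libraries required, the scaling, the pseudocount, the choice of identifier and each library alone.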

Additional observations from a re-analysis of the deposited data

How the results depend on the processing

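The count of detected genes among the 37 was 28, and it was 30 at a limit of 0.5 RPKM, 20 at 5 RPKM (beside 35.4% of protein-coding genes), 28 with either library over the limit and 28 with identifiers summed. Rescaling to an equal protein-coding total in each library multiplied values by 4.11, which puts the limit of 1 between the floor and the lowest listed value, and 30 were over it. The 50 further genes had 43 detected, with 46 at 0.5 RPKM, 34 at 5 RPKM, 43 with either library or with identifiers summed, and 46 after rescaling. Without replicate 1 or without replicate 2 the counts were 28 and 43 again. The median of log2(RPKM + 1) over the 37 was 3.075, against 1.77 over protein-coding genes. It was 3.065 to 3.081 with 1 library left out, 2.912 with a pseudocount of 0.1 (1.33 over protein-coding genes), 3.24 over the 30 genes above the floor in both libraries, and 4.978 after rescaling (3.45 over protein-coding genes). These shifts follow from the pseudocount, the genes left out and the factor itself. The median absolute difference between libraries was 0.038 over those 30 genes on the log2(RPKM + 1) scale, 0.044 with a pseudocount of 0.1 and 0.029 over the 20 genes at 5 RPKM or more. No paired analysis was possible because the series holds 1 group. Depth limits low genes most, as for MFNG and HEY2.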

Other observations

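Around the 7-base RBPJ motif, HES promoters share further bases. HES1 and HES4 share the 12 bases tgtgggaaagaa, which occur on either strand in 8 of 35116 promoter windows (0.023%). The windows belong to 8 gene symbols. Of these, HES1 and HES4 had 54.6 and 21.6 RPKM in library 1, GHDC had 2.00, VIPR1 had 0.648 and SGMS2 was at the floor, and the other 3 were not matched to protein-coding genes of the table. HES5, at the floor, shares with HES4 the 11 bases gagtgtgggaa, found in 12 windows, and with HES1 only tgtgggaa, found in 599 windows. The stretch was noticed in these sequences and then counted, so the counts are a description, and whether the flanking bases bear on the levels was not tested.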
